A study of Mus musculus with 20 samples.

Results

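Compound 181, a small molecule known here only by its code name, was given to mouse C2C12 myoblasts at 6.25, 12.5 and 25 µM and set against methanol, taken as its vehicle. The members are the 3 arrays of compound 181 and the 3 methanol arrays, 6 of the 20 arrays of the series, chosen by their titles. C2C12 is an established line of mouse muscle precursor cells, and all samples were this 1 line in medium with serum. The series also holds 2 arrays of untreated cells, 2 each of recombinant BMP4 at 10, 100 and 300 ng/ml, and 1 at each of the same 3 doses for the compounds 178 and 942. Titles carry running numbers: methanol replicate 1 lay in the run 10 to 17, while methanol replicates 2 and 3 and all arrays of compounds 181 and 178 lay in the run 18 to 29. Each dose of compound 181 was a single array, and its title number rose with its dose, so dose and place in the run cannot be told apart. Nothing in the labels ties replicate arrays to separate cultures, so p-values cover only the spread between arrays, and that spread may be technical. The 12.5 µM and 100 ng/ml doses stand in the titles and not in the treatment protocol, and the sources used here do not give the time of treatment.

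Bone morphogenetic proteins bind paired kinase receptors that phosphorylate the receptor-regulated SMADs, which enter the nucleus with SMAD4 and turn on targets such as the Id genes and the inhibitory SMADs. In C2C12 cells this signal is known for blocking the muscle programme and inducing osteoblast genes, and the series was designed to set the compounds beside BMP4. Cells also carry stress programmes that small molecules often touch: NRF2 turns on genes of glutathione and quinone metabolism, and ATF4 turns on genes of amino acid supply.

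All values are log2 signals, so a difference of 1 is a doubling. The 6 arrays had medians of 4.959 to 4.998. All 9 myoblast markers measured lay above the array median on all 6 arrays, against 0 of 8 endothelial, 1 of 8 macrophage, 4 of 7 epithelial and 3 of 6 adipocyte markers. The summed log2 signal of the 6 adipocyte markers was 32.2 to 32.7 in methanol and 32.3, 33.7 and 34.7 over the rising doses, and that of the 7 epithelial markers 34.4 to 35.0 and 34.4, 35.8 and 35.3. The part of either in the results was not tested. Methanol replicate 1 stood apart from its group: it was at least 0.5 above the mean of the other methanol arrays for 745 genes and at least 0.5 below it for 301. Results are therefore also given against the 2 methanol arrays of the same run.

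Over all 22180 genes, few calls were made. Slc7a11, the cystine-glutamate exchanger that brings in cystine for glutathione synthesis, was the only gene that passed the test for the mean of the 3 doses minus methanol (limma with 1 mean per treatment and dose, Benjamini-Hochberg adjusted p below 0.05). Calls were thus 1 higher (0.00451%) and 0 lower (0%), with 816 genes at an unadjusted p below 0.05 (3.68%). At 25 µM alone 4 genes were called higher (0.018%) and 0 lower, with 1416 at an unadjusted p below 0.05 (6.38%). No gene was called by limma at 6.25 µM (330 unadjusted, 1.49%), at 12.5 µM (478 unadjusted, 2.16%), for the slope per doubling of dose (787 unadjusted, 3.55%) or against the same-run methanol arrays (902 unadjusted, 4.07%). Without methanol replicate 1 the 25 µM calls were 2, and without replicate 2 or 3 only 1 (Slc7a11), while adding the run as a term gave 25. The test borrows the spread of the single compound arrays from the replicated groups, with 5 residual degrees of freedom. This fit had no run term, and every replicated group had arrays in both runs. The borrowed spread therefore includes differences between the runs, while the arrays of this compound all lay in the same run. The part of this in the rise to 25 calls was not tested.

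Slc7a11 gave signals of 4.16, 4.56 and 4.64 in methanol replicates 1, 2 and 3, and of 5.12, 6.11 and 7.19 at 6.25, 12.5 and 25 µM of compound 181. Each doubling of dose added a step of about equal size. The groups did not overlap, as was so for 1068 of all 22180 genes above methanol and 1443 below it. The mean over doses was 1.68 above methanol (SE 0.19, 95% interval 1.27 to 2.10, adjusted p = 0.0317 by limma). The 25 µM array was 2.74 above the methanol mean (adjusted p = 0.00732). All 3 methanol signals lay below the array medians, and the gene reached a mean signal of 5 through its compound 181 arrays. Against the same-run methanol arrays the mean difference was 1.54 (adjusted p = 0.298), which did not pass. The call for the mean was lost without any 1 of the 3 methanol arrays and without the 12.5 or the 25 µM array, while the call at 25 µM held without each methanol array in turn. A dimmer probe set of the same gene read 2.01 to 2.40 in methanol and 2.80 at 25 µM.

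The promoter of Slc7a11 is shown because this gene carries the only call for the mean. It is RefSeq sequence of the GRCm38.p6 build, the 250 bases upstream of the annotated start, chr3:50443614-50443863 on the minus strand, with capitals marking matches to TGATGNAA on either strand, a core shared by sites of ATF4 with C/EBP proteins.
Slc7a11: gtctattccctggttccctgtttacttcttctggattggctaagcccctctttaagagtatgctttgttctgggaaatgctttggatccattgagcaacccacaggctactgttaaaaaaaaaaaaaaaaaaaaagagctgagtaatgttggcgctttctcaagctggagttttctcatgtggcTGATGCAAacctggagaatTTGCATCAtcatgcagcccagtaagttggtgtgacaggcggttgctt
Both matches lie close to the start, at -66 to -59 on the plus side of the gene and at -47 to -40 in reverse. TGATGNAA occurs in the same window of 578 of the 16990 tested genes with a promoter in the table (3.4%). Of the 10 ascending genes named below that had a promoter there, 1 held it, which was Slc7a11. The NRF2 core TGACNNNGC, searched on both strands, was in 0 of these 10 and in 12.3% of all. With 10 promoters a count of 0 cannot be told apart from that share. Of the 12 listed NRF2 targets with a promoter there, 2 held the core (16.7%).

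Genes were then followed over dose. A gene is called ascending here when its 6.25 µM array lay above all 3 methanol arrays and its signal went up with each dose, and descending in the reverse case. There were 320 ascending genes (1.44% of those tested) and 471 descending genes (2.12%), so that 40.5% of both were ascending. With quantile normalization applied again the counts were 406 and 397, with 50.6% ascending. With the 25 µM array also at least 1 from the methanol mean, 12 were ascending (0.0541%) and 10 descending (0.0451%). Order without any control was common: 4257 genes (19.2%) had their 3 doses in ascending order and 4295 (19.4%) in descending order. At 25 µM 10485 of all 22180 genes lay above the methanol mean and 11695 below it. The size of the differences grew with dose, from 118 genes at least 0.5 above and 138 at least 0.5 below methanol at 6.25 µM to 206 and 156 at 12.5 µM and 528 and 552 at 25 µM. Methanol replicate 1 against its own group had 745 and 301, more above and below than the 6.25 and 12.5 µM arrays. Against the 2 same-run methanol arrays alone 766 genes were ascending (3.45%) and 841 descending (3.79%). The orders are descriptions with no test, and the genes named from them are the 15 with the largest 25 µM difference and a mean signal of at least 5 in each direction.

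The named ascending genes are given here by their known roles, first those of redox and sulfur amino acid metabolism. Gsta4, a glutathione transferase that clears products of lipid peroxidation, had signals of 9.43, 9.49 and 9.75 in methanol and of 9.97, 10.25 and 11.07 with rising dose. The 25 µM array was 1.52 above methanol (adjusted p = 0.122). Nqo1, a quinone reductase and a standard NRF2 target, had 5.66, 5.92 and 6.04 in methanol and 6.21, 6.44 and 6.87 over the doses. Its 25 µM difference was 1.0 (adjusted p = 0.431). Neither gene's groups overlapped, as for 1068 of all 22180 genes on that side. Cth, which makes cysteine from cystathionine, went from 5.05, 4.77 and 5.08 in methanol to 5.13, 5.70 and 6.55. The 25 µM difference of Cth was 1.59 (adjusted p = 0.0973), and the lowest dose sat just above the highest methanol array.

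**Figure D1:**
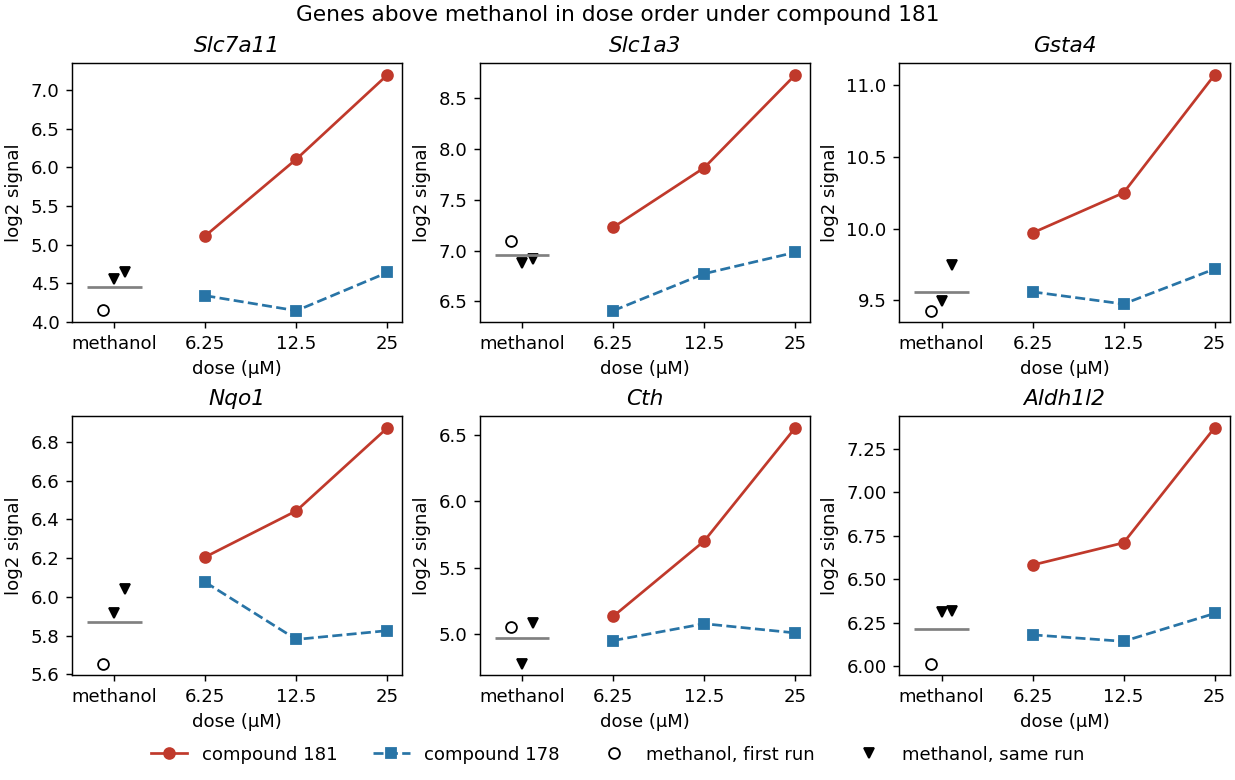
Log2 signal (y axis) of 6 ascending genes in the 3 methanol arrays and at 6.25, 12.5 and 25 µM of compound 181 (red circles) and compound 178 (blue squares), 1 array per point, with the methanol mean as a grey line and a separate y range in each panel. Compound 181 lies above all methanol arrays at each dose in all 6 panels, and compound 178 stays below it at the same dose.

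Of the 18 measured NRF2 targets, 1 passed the test for the mean (Slc7a11), 16 were above methanol in the mean and 17 at 25 µM, and 12 had their doses in ascending order (66.7%, against 19.2% of all genes) and 0 in descending order. Their median difference was 0.02, 0.08 and 0.33 at the 3 rising doses, against -0.01 for all genes at 25 µM. Of all 22180 genes, 10458 were above methanol in the mean and 10485 at 25 µM. By the full rule 4 of the 18 were ascending (22.2%, against 1.44% of all genes). They were Slc7a11, Gsta4, Nqo1 and Aox1, an aldehyde oxidase with a 25 µM difference of 0.87 (limma adjusted p = 0.372). Against the same-run methanol arrays 16 of 18 were higher at 25 µM, with a median of 0.31. Compound 178 gave this list a median of -0.02 at 25 µM, and the BMP4 mean gave it 0.22. BMP4 also raised Slc7a11, by 1.23 over untreated cells (adjusted p = 0.00179).

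The ATF4 and CHOP branch of the stress response had a median 25 µM difference of 0.04, with 12 of 18 genes higher and 6 lower, and none passed the test. Trib3, a pseudokinase induced by ATF4, was ascending: 6.03, 5.95 and 6.25 in methanol and 6.5, 6.57 and 7.03 over the doses (25 µM difference 0.96, adjusted p = 0.403). Ddit3, which encodes the transcription factor CHOP, was above all methanol arrays at every dose, as were 1068 of all 22180 genes. The 25 µM difference of Ddit3 was 0.67 (limma adjusted p = 0.472). Sesn2 and Phgdh, a stress-induced regulator of growth signalling and the first enzyme of serine synthesis, each had 25 µM differences of 0.55 and overlapped methanol at the lowest dose. In the mean over doses Sesn2 was 0.34 above compound 178, but Phgdh only 0.05. Aldh1l2, a mitochondrial enzyme of folate metabolism, was in no list and was ascending from 6.02 to 6.32 in methanol to 6.58, 6.71 and 7.37 (25 µM difference 1.15, adjusted p = 0.122). Chaperones of the endoplasmic reticulum lay the other way, with 14 of 15 below methanol at 25 µM and a median of -0.10. Of all 22180 genes, 11695 were below methanol there.

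Among secreted factors, Ptn, the heparin-binding growth factor pleiotrophin, was called at 25 µM. Its signals were 6.76, 6.70 and 6.73 in methanol and 6.92, 7.01 and 7.79 over the doses (25 µM difference 1.06, adjusted p = 0.0351). The 3 methanol arrays differed by less than 0.1, and the 25 µM array carried most of the difference. Sfrp2, a secreted modulator of Wnt signalling, had 6.10, 6.03 and 5.97 in methanol and 6.36, 6.98 and 7.89 over the doses. Its 25 µM difference of 1.85 did not pass (limma adjusted p = 0.29), and a dimmer probe set of Sfrp2 differed by 0.15. F3, the tissue factor that starts coagulation, had 7.75, 7.84 and 8.05 in methanol and 8.13, 8.60 and 9.32 over the doses (25 µM difference 1.44, adjusted p = 0.138). Penk, which encodes the opioid precursor proenkephalin, was ascending by 0.99 at 25 µM.

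Of the 17 listed chemokines, cytokines and related inflammatory genes, 12 were above methanol at 25 µM and 5 below, with a median of 0.31. None passed for the mean. Ccl5, a chemokine for T cells and monocytes, passed at 25 µM: it read 5.55, 5.31 and 5.17 in methanol and 5.76, 5.58 and 6.83 over the doses (25 µM difference 1.49, adjusted p = 0.0351). All its compound arrays lay above methanol, as for 1068 of all 22180 genes, though 12.5 µM was below 6.25 µM. Cxcl5, a neutrophil chemokine, read 5.43, 5.57 and 5.72 in methanol and 5.71, 6.46 and 7.47 over the doses (25 µM difference 1.90, adjusted p = 0.0973). Its lowest dose was level with the highest methanol array. Csf1, the macrophage growth factor, was ascending with a 25 µM difference of 0.83, and Cxcl12, a chemokine for stem and immune cells, was 1.11 above methanol at 25 µM with an overlap at the lowest dose. The summed log2 signal of 8 macrophage markers was 33.9 to 34.6 in methanol and 33.5, 35.0 and 35.3 over the rising doses, and its part in these values was not tested. The fourth gene called at 25 µM, the olfactory receptor gene Olfr1275, read 2.45 to 2.51 in methanol and 3.85 at 25 µM, below the median signal of every array.

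The remaining named ascending genes were enzymes and transporters. Slc1a3, a glutamate and aspartate transporter, read 7.09, 6.87 and 6.92 in methanol and 7.23, 7.81 and 8.73 over the doses (25 µM difference 1.77, adjusted p = 0.29). Hpgd, which inactivates prostaglandins, read 6.0, 6.56 and 6.55 in methanol and 6.58, 7.03 and 7.77, so that its lowest dose only just cleared the same-run methanol arrays. The retinol-oxidising alcohol dehydrogenase Adh7 was ascending by 1.08 at 25 µM, the aldehyde dehydrogenase Aldh3a1 by 0.95 and the transporter Abca8b by 0.93. The smallest margin of a named gene at 6.25 µM over the highest methanol array was 0.00595 (Abca8b). Just outside the rule lay Fgf7 (25 µM difference 2.00), Phex (1.92) and Ranbp3l (1.83), whose 6.25 µM arrays were inside the methanol range. Fgf7 encodes an epithelial growth factor and Phex an endopeptidase of bone cells that acts on phosphate handling. Phex was the highest at 25 µM of 13 measured osteoblast genes, and Col1a1 was the lowest, at -0.72. Of these 13, 7 were above and 6 below methanol at 25 µM, against 10485 and 11695 of all 22180 genes. Their median there was 0.03, and BMP4 gave the list a median of 1.24.

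The BMP pathway itself gave no call. Of its 46 measured genes 0 passed the test for the mean, 21 were above and 25 below methanol at 25 µM, and the median there was -0.02. The 8 ligands had a median of 0.02 and the 10 receptors one of -0.05 at 25 µM. The receptor with the largest mean difference was Tgfbr3, the betaglycan co-receptor, which was ascending with 6.15, 6.09 and 5.80 in methanol and 6.28, 6.39 and 6.73 over the doses (mean difference 0.45, adjusted p = 1). Among the inhibitors, Fst, the activin and BMP antagonist follistatin, was descending, from 8.00, 7.53 and 7.46 in methanol to 7.34, 7.19 and 6.74 (25 µM difference -0.93, adjusted p = 0.331). Its relative Fstl3 was also descending, with a 25 µM difference of -0.64.

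Downstream, no SMAD or direct target passed the test. Of the 6 SMADs, 5 had their doses in ascending order (83.3%, against 19.2% of all genes), but none lay above methanol at all doses and the median at 25 µM was 0.08. Smad6, an inhibitory SMAD that BMP signalling induces, read 5.98, 5.81 and 5.94 in methanol and 5.66, 6.0 and 6.08 over the doses, with a mean difference of 0.00 (95% interval -0.70 to 0.71). BMP4 gave Smad6 a mean difference of 2.24 from untreated cells (adjusted p = 0.0012). The mean differences of Smad7 and Smad9 were -0.10 and 0.01 under compound 181 and 1.12 and 1.31 under BMP4.

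Of 12 measured direct BMP targets, 0 passed, 6 were above and 6 below methanol at 25 µM, and 7 had ascending doses (58.3%). Id1, an inhibitor of myogenic transcription factors, read 7.33, 7.20 and 7.37 in methanol and 7.12, 7.30 and 7.68 over the doses. The lowest dose was thus below and the highest above the methanol range, with a mean difference of 0.07 (95% interval -0.77 to 0.91). Id3 read 8.73, 8.79 and 8.91 in methanol and 8.87, 9.04 and 9.35 (25 µM difference 0.54, adjusted p = 0.937). Atoh8, a target in the same family of factors, also had a 25 µM difference of 0.54, and Id2 one of 0.24. Among the 6 targets below methanol, Dlx5 had a 25 µM difference of -0.50 and Hey1 one of -0.31. Osterix, the osteoblast factor encoded by Sp7, was at 4.40 to 4.45 in methanol and at 4.25 to 4.57 over the doses, against a mean BMP4 difference of 3.97 (adjusted p = 7.4e-05). Dlx2 was ascending by only 0.13 at 25 µM and 1.69 higher under BMP4. The interval for Id1 is wide and holds 0.89, the difference that BMP4 at 10 ng/ml gave it.

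**Figure D2:**
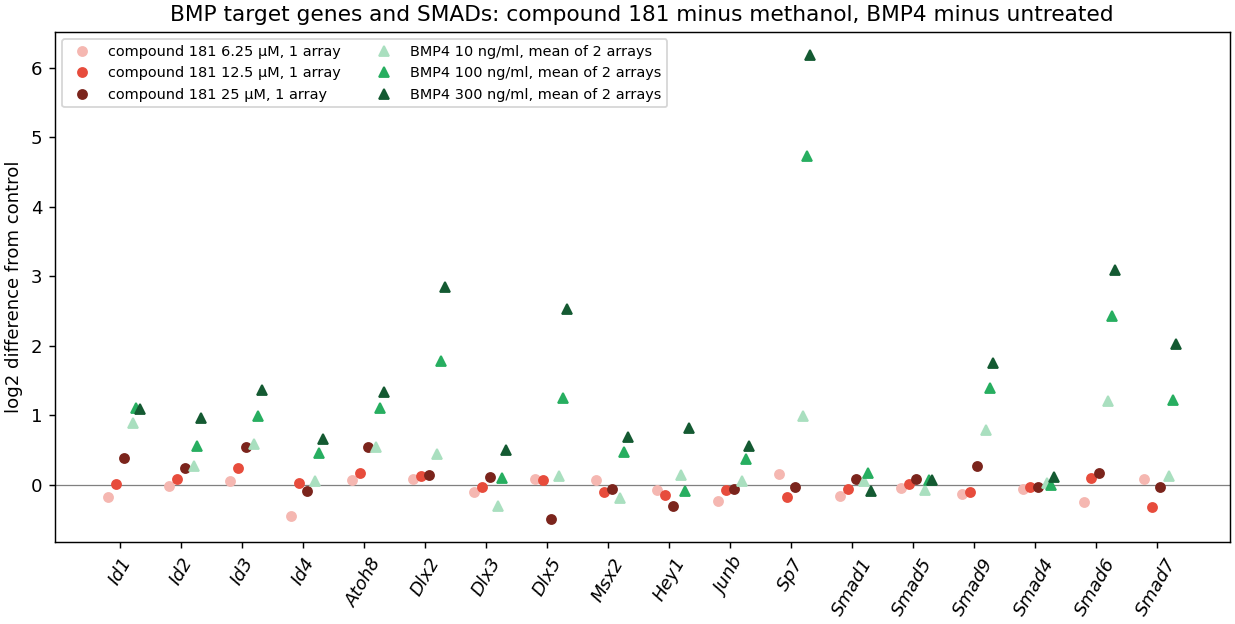
Log2 difference from control (y axis) of 12 direct BMP targets and 6 SMADs (x axis), for compound 181 minus the methanol mean (red circles, 1 array per dose) and for BMP4 minus the untreated mean (green triangles, 2 arrays per dose). The circles stay between -0.50 and 0.54, while Sp7 and Smad6 stand far above 0 under BMP4.

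A wider view uses the genes that BMP4 changed. Their means come from BMP4 and untreated arrays, but the test was made in the same fit, whose spread is pooled over the replicated groups, methanol included. BMP4 raised 932 genes (4.2%) and lowered 1021 (4.6%) against untreated cells. Under compound 181 the raised genes had medians of 0.00, 0.01 and 0.08 at the rising doses, and 626 of 932 were above methanol at 25 µM. The lowered genes had medians of -0.04, -0.10 and -0.18, and 809 of 1021 were below methanol at 25 µM. Of all 22180 genes, 10485 were above and 11695 below methanol at that dose. Dose order followed: 356 of the raised genes had ascending doses (38.2%) and 492 of the lowered genes had descending doses (48.2%), against 19.2% and 19.4% of all genes. The same-run methanol arrays gave 602 of 932 above and 804 of 1021 below at 25 µM. Under compound 178, 249 of the raised genes had ascending doses (26.7%, against 17.5% of all genes). Their median there was 0.05 at 25 µM. Of the lowered genes, 185 had descending doses under compound 178 (18.1%, against 16.4% of all genes), with a 25 µM median of -0.02.

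Read the other way, 58 of the 320 ascending genes were among those raised by BMP4, which is 18.1% of the ascending and 6.22% of the raised genes, and 11 (3.44% of the ascending) were among those lowered. Of the 471 descending genes, 101 were lowered by BMP4, 21.4% of the descending and 9.89% of the lowered genes, and 16 (3.4% of the descending) were raised. Under compound 178, 10 of 174 ascending genes were raised by BMP4 (5.75%) and 7 lowered (4.02%). Of its 189 descending genes, 15 were lowered (7.94%) and 10 raised (5.29%). Of all genes, BMP4 raised 4.2% and lowered 4.6%. No test of these overlaps was made. The 15 named genes of compound 181 on each side leaned further: 11 ascending genes were raised by BMP4 and 12 descending genes were lowered by it. Sfrp2 was 4.74 higher and Hpgd 3.20 higher under BMP4, both among the 8 largest BMP4 differences of all genes. Gsta4, Trib3, Aldh3a1 and Abca8b were the named ascending genes that BMP4 did not call. Some other top BMP4 genes read close to methanol under compound 181: Aspn, Prg4 and Fmod, all of extracellular matrix, had BMP4 differences of 3.68, 4.02 and 4.34 and compound 181 mean differences of -0.03, -0.02 and -0.24. A dimmer Fmod probe set was 0.20 from methanol at 25 µM, and the one used was -0.36. Omd, a matrix gene also among those 8, was 0.58 above methanol in the mean and 0.85 at 25 µM. Panx3, another of them, had a mean difference of -0.15. Across genes, the mean difference of compound 181 and that of BMP4 had a Pearson correlation of 0.236 over 22180 genes, which are not independent replicates.

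Muscle genes lay below methanol as a group. Of 54 measured contractile genes, 0 passed the test for the mean, but all 54 were below methanol in the mean and at 25 µM. Of all 22180 genes, 11722 were below methanol in the mean and 11695 at 25 µM. The doses of the contractile genes were in descending order for 43 (79.6%, against 19.4% of all genes) and in ascending order for 0. The median was -0.13 at 6.25 µM, -0.30 at 12.5 µM and -0.65 at 25 µM, with single genes from -1.42 to -0.05 at 25 µM. By the full rule 5 were descending (9.26%, against 2.12% of all genes). The low methanol replicate 3 often sat near the 6.25 µM array. The methanol arrays themselves differed in this list, with a median of 0.19 for replicate 1 minus the others and of 0.25 for replicate 2 minus replicate 3. Against the same-run arrays the 25 µM median was -0.56 and 53 of 54 were lower. BMP4 gave the list a median of -1.86, and compound 178 gave it 0.00 at 25 µM.

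Casq1, which stores calcium in the sarcoplasmic reticulum, read 7.73, 7.52 and 7.04 in methanol and 7.05, 6.47 and 6.01 over the doses (25 µM difference -1.42, adjusted p = 0.198). Its lowest dose was level with methanol replicate 3. Mybpc1, the slow form of myosin-binding protein C, read 5.61, 5.86 and 5.25 in methanol and 4.83, 5.07 and 4.56 over the doses. These were all below methanol, as for 1443 of all 22180 genes, but not in dose order. Ankrd23 and Ankrd2 encode ankyrin repeat proteins that bind titin. Ankrd23 was descending, from 7.97, 7.63 and 7.38 in methanol to 7.20, 6.92 and 6.73 (25 µM difference -0.93, adjusted p = 0.297). Ankrd2 had descending doses of 8.66, 8.16 and 7.66 with the first inside the methanol range of 8.48 to 9.33. Of the strongest BMP4 genes, the embryonic myosin Myh3 was 0.97 below methanol at 25 µM and 3.59 lower under BMP4, and the troponin Tnnc1 was 0.67 below methanol and 3.43 lower under BMP4.

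The promoters of Casq1 and Mybpc1 are shown as the largest mean differences of the contractile list. They are the 250 bases upstream of the RefSeq start in GRCm38.p6, chr1:172219896-172220145 and chr10:88605153-88605402, both on the minus strand, with capitals marking CAGCTG, an E-box core that reads the same on both strands and that myogenic factors bind.
Casq1: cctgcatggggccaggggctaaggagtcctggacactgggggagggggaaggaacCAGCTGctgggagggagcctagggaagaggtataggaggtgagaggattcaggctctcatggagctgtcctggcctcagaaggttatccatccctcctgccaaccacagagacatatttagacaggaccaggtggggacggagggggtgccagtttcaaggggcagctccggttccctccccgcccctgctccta
Mybpc1: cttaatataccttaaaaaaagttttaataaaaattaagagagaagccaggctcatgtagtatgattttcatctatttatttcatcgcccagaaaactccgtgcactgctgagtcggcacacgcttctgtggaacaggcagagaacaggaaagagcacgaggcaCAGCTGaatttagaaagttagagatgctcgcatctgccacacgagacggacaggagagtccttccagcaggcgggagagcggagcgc
The E-box lies at -195 to -190 in Casq1 and at -87 to -82 in Mybpc1. CAGCTG was in this window of 17 of the 42 contractile genes with a promoter in the table (40.5%) and of 14.3% of all 16990 genes. The match is a description of the letters in the window.

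Mb, the oxygen store myoglobin, was outside the contractile list and among the largest descending genes. It read 9.23, 8.72 and 8.40 in methanol and 8.33, 7.91 and 7.37 over the doses (25 µM difference -1.41, adjusted p = 0.29). Replicate 1 was its highest methanol array, as it was for 12 of the 15 named descending genes. Trim72, a factor of muscle membrane repair, and Abra, a muscle activator of actin and serum response factor signalling, were descending by -0.99 and -1.0 at 25 µM.

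**Figure D3:**
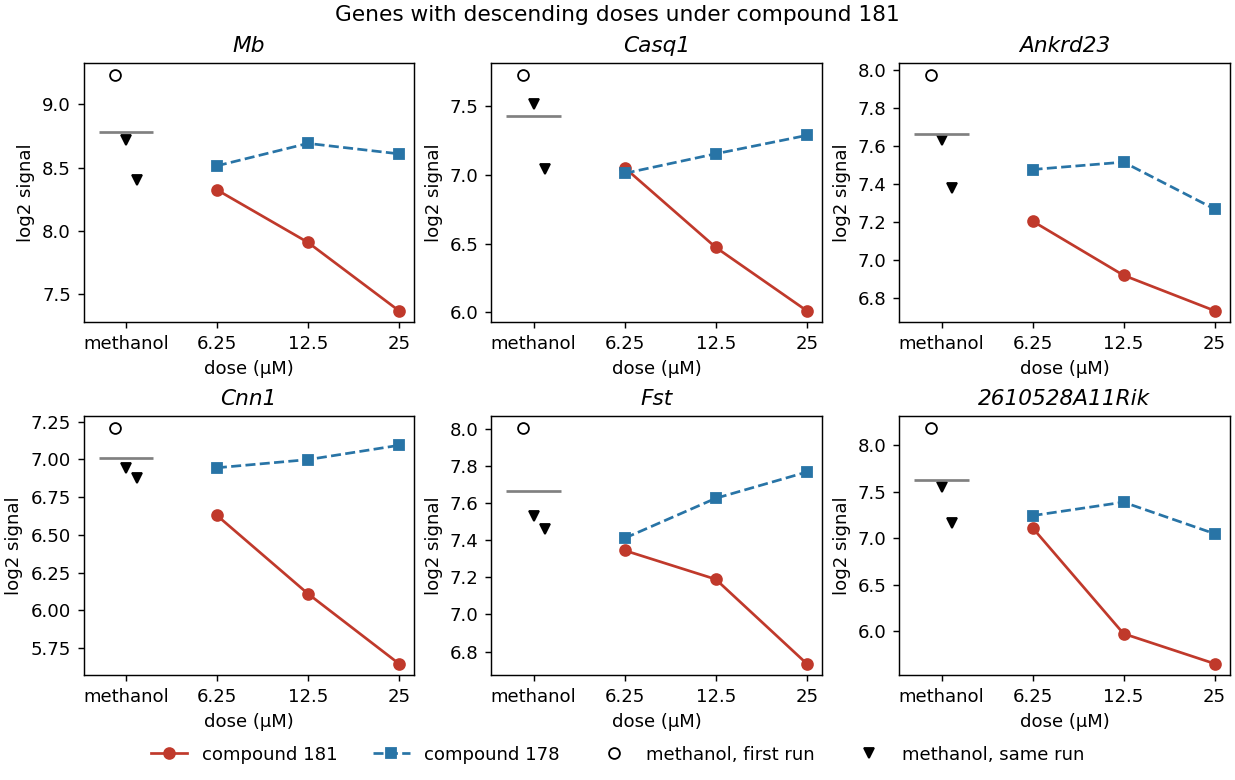
Log2 signal (y axis) of 6 genes with descending doses in the 3 methanol arrays and at 6.25, 12.5 and 25 µM of compound 181 (red circles) and compound 178 (blue squares), 1 array per point, with the methanol mean as a grey line and a separate y range in each panel. The 25 µM array of compound 181 is the lowest point of every panel, and methanol replicate 1 (open circle) is the highest methanol array.

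The 19 measured myogenic regulators had a median of -0.23 at 25 µM, with 15 below and 4 above methanol and 12 in descending order (63.2%). None passed. Myog, the transcription factor of terminal muscle differentiation, read 11.22, 10.85 and 10.69 in methanol and 10.88, 10.67 and 10.24 (25 µM difference -0.68, adjusted p = 0.859). Mef2c, its partner factor, had a 25 µM difference of -0.73 and Rbm24, a muscle splicing regulator, one of -0.82. A dimmer probe set of Mef2c was -0.12 from methanol at 25 µM. Mymx, which drives myoblast fusion, read 7.26, 6.69 and 6.47 in methanol and 6.52, 6.35 and 5.89 over the doses. The 9 myoblast markers summed to 92.8 to 93.2 in methanol and to 92.8, 92.7 and 92.1 over the doses. In bulk samples fewer cells of a type and less RNA per cell cannot be told apart.

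Other descending genes were not of the contractile set. The largest was 2610528A11Rik, which read 8.19, 7.55 and 7.16 in methanol and 7.11, 5.98 and 5.65 over the doses (25 µM difference -1.98, adjusted p = 0.157), and it was 0.78 above untreated under BMP4. Cnn1, a calponin of smooth muscle and myofibroblasts, read 7.21, 6.94 and 6.88 in methanol and 6.63, 6.11 and 5.65 (25 µM difference -1.36, adjusted p = 0.53). Cnn1 was the 1 named descending gene that BMP4 raised, by 1.24. Of its list of 15 serum response factor and cytoskeletal targets, 12 were below methanol at 25 µM (11695 of all 22180 genes), with a median of -0.15. In the list 9 had descending doses (60%, against 19.4% of all genes). Pdgfb, a growth factor for mesenchymal cells, was descending by -1.11 at 25 µM and the secreted protein C1qtnf3 by -1.17. R3hdml (25 µM difference -2.04) and Sprr1a (-1.55) lay just outside the rule because their 6.25 µM arrays were inside the methanol range. Both were also among the 8 lowest genes under BMP4, by -4.11 and -3.34.

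Genes known to be induced in hypoxia lay below methanol as well. Of 15 measured, 0 passed and 13 were below methanol at 25 µM, against 11695 of all 22180 genes. Doses were descending for 9 (60%, against 19.4% of all genes), and the median was -0.12, -0.23 and -0.35 over the rising doses. Egln3, a prolyl hydroxylase that marks HIF for degradation, read 9.82, 9.55 and 9.31 in methanol and 9.43, 8.99 and 8.48 (25 µM difference -1.07, adjusted p = 0.122). The mitophagy receptor Bnip3 was -0.80 and the pyruvate dehydrogenase kinase Pdk1 -0.62 from methanol at 25 µM. A far dimmer Pdk1 probe set, at 2.35 to 2.65 in methanol, was 0.27 higher at 25 µM. BMP4 went the other way for this list, with a median of 0.35. Of 23 genes of cholesterol synthesis and uptake, 19 were below methanol at 25 µM and 14 had descending doses (60.9%), but the median was only -0.14. Lists with medians within 0.1 of 0 at 25 µM included extracellular matrix (0.01), cell cycle (-0.06), interferon response (-0.05), aryl hydrocarbon receptor targets (-0.02) and lysosome and autophagy (-0.02). Against the same-run methanol arrays the cell cycle list left that band, with a median of -0.13 and 35 of 46 genes lower.

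**Figure D4:**
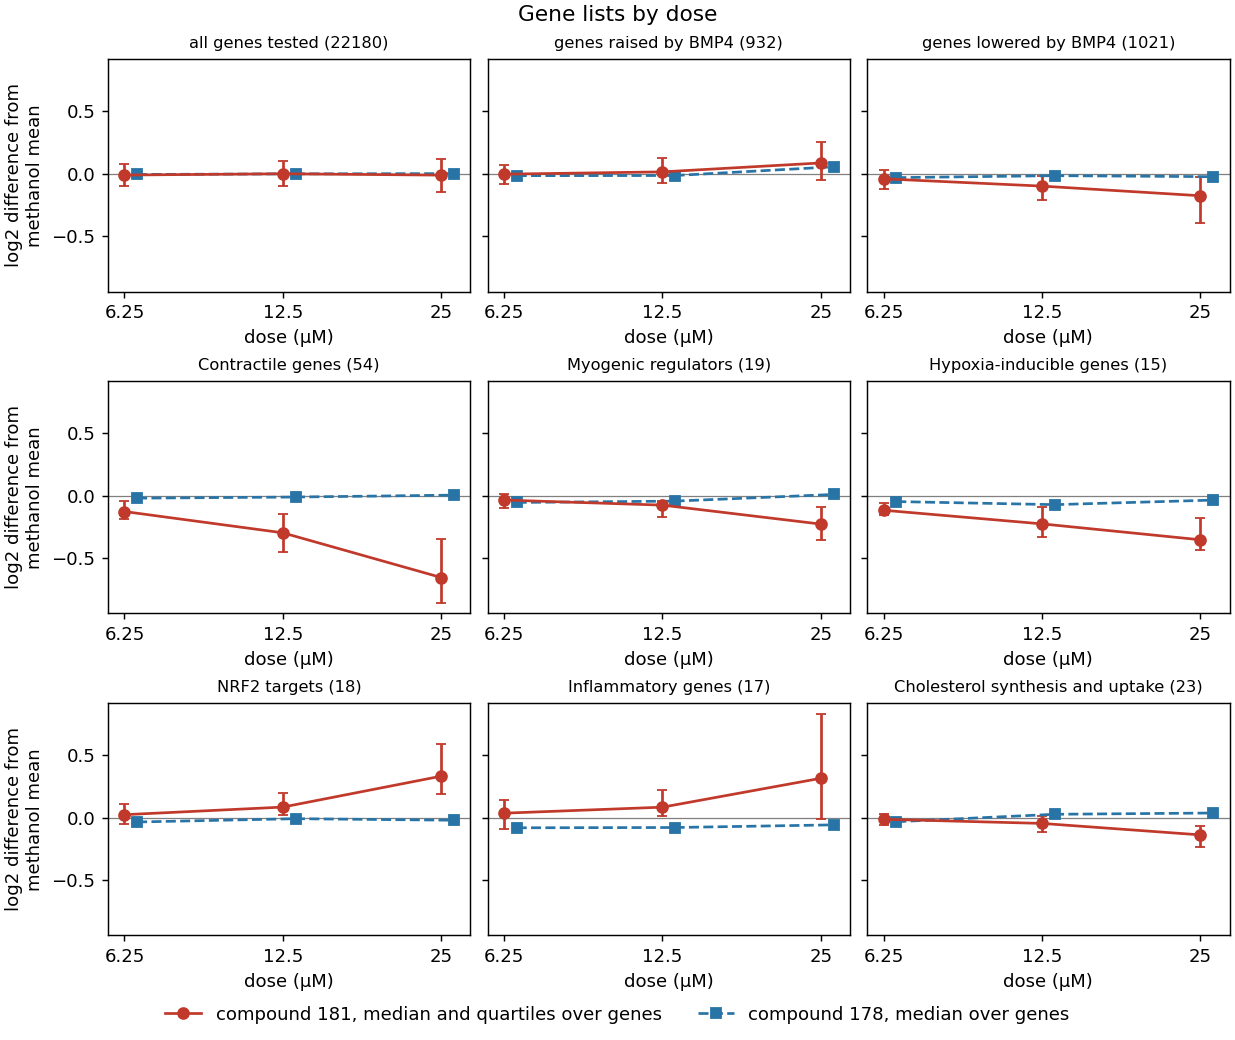
Median log2 difference from the methanol mean (y axis) over the genes of 9 lists, by dose in µM (x axis), for compound 181 (red, bars are the quartiles over genes) and compound 178 (blue), with the number of genes in brackets. Contractile genes reach -0.65 and NRF2 targets 0.33 at 25 µM of compound 181, while compound 178 stays near 0 in every panel.

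Compounds 181 and 178 were measured at the same 3 doses in the same run, 1 pair of compounds with 1 array a dose. Their mean difference over matched doses was called for 1 gene, Slc7a11 (0.00451%), with 0 lower and 1173 at an unadjusted p below 0.05 by limma (5.29%). Slc7a11 read 4.34, 4.15 and 4.64 under compound 178, within or at the edge of the methanol range, and was 1.76 higher under compound 181 (95% interval 1.35 to 2.17, adjusted p = 0.02, higher at 3 of 3 doses). At single doses limma called 0 genes, with 395, 548 and 1233 at an unadjusted p below 0.05 at 6.25, 12.5 and 25 µM. The call for Slc7a11 was lost without the 12.5 or the 25 µM array of either compound. It was also lost with the compounds paired by dose on their 6 arrays alone (adjusted p = 0.108, 0 genes called and 2455 unadjusted by limma). The slopes over dose differed for 0 genes (505 unadjusted, 2.28%). Apart from the paired fit, these tests took their spread from replicated groups with arrays in both runs.

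The next largest differences between the compounds did not pass. Slc1a3 was 1.20 higher under compound 181 (adjusted p = 0.64), Ranbp3l 1.06, Cxcl5 1.05 and Adh7 0.90 higher (adjusted p = 0.16). R3hdml was -1.08, 2610528A11Rik -0.98 and Cnn1 -0.88 from compound 178. For 14 of the 15 named ascending genes compound 181 was above compound 178 at every dose, and for 14 of the 15 descending genes below it. These genes were chosen for their course under compound 181. The contractile list had a median of -0.34 for compound 181 minus compound 178, and its doses were in descending order for 7 of 54 genes under compound 178, against 16.4% of all genes there. They were in ascending order for 17 of 54 (31.5%, against 17.5% of all genes). Against the same methanol arrays compound 178 had 174 ascending (0.784%) and 189 descending genes (0.852%), with 0 and 1 at least 1 from methanol at 25 µM. Compound 942, of the first run and the other labelling method, had 277 (1.25%) and 407 (1.83%). These counts share their control arrays with those of compound 181. The labels give no structure for the 3 compounds.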

How the data were processed

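Total RNA of C2C12 cells was hybridised to Affymetrix mouse gene arrays. The deposited values are log2 signals per probe set, made by the authors in Partek 6.5 with RMA, per the submitters' processing notes, and were used as they stood. RMA normalizes quantiles, which pulls overall signal shifts together. Labelling was by the Affyexpress method for BMP4 300 ng/ml replicate 1 and compound 942, per the labels, and by the standard method otherwise.

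Of 41345 probe sets, the 23521 with 1 symbol gave 22180 genes, each by its brightest probe set. Limma 3.58.1 (R 4.3.3) fitted all 20 arrays with a separate mean for each treatment and dose, a labelling term and a trended prior. Only BMP4 300 ng/ml had arrays of both labelling methods, so its fitted mean rests on replicate 2, the array of the standard method. P-values were Benjamini-Hochberg adjusted over all genes, and those under 0.05 were called. The fit was tested on simulated data. Alternatives changed 1 choice at a time, except that fits on the compared arrays alone also changed how doses were modelled. The background correction could not be varied, since only RMA values were used.

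Genes were named by a fixed rule: calls, the 15 largest ascending and descending genes at 25 µM, the 8 highest and lowest mean and BMP4 differences, the 4 largest of each of 29 gene lists, all SMADs and direct BMP targets, and the 5 most apart from compound 178. Of 562 listed genes 522 were measured. The members and lists were chosen with earlier results of these data known. Promoters are RefSeq sequences of GRCm38.p6, matched by symbol. The number of arrays limits the precision.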

Additional observations from a re-analysis of the deposited data

Results flagged for a closer look

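Slc7a11 differed between the compounds: it was 1.76 higher under compound 181 than under compound 178 over the matched doses (limma adjusted p = 0.02, or 0.108 with the compounds paired by dose, higher at 3 of 3 doses), with 1 array a dose for each compound.

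Probe sets outside the genes tested also held ascending signals. Of 17824 probe sets with no symbol or with several, 5 unnamed ones were ascending with a 25 µM array at least 1 above the methanol mean and a mean signal of at least 5, and 4 unnamed ones were descending by as much. Their 25 µM differences were 1.48, 1.37, 1.19, 1.17 and 1.09 on the ascending side. The 1.37 rests in part on methanol replicate 1 and was 0.84 against the same-run methanol arrays, and that probe set read 5.70, 5.87 and 6.36 over the doses of compound 178, above compound 181 (6.27) at 25 µM. These probe sets have no gene name here and were not tested.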

How the results depend on the processing

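The call for Slc7a11 in the mean over doses (1 gene) was 0 with no trend in the prior, with only the arrays compared and doses as replicates, with the doses sharing a mean, with genes of mean signal of at least 5, with the mean of probe sets and with quantile normalization again. Its adjusted p ranged from 0.00219 to 1 over 16 settings and its difference from 1.0 to 2.19. Calls ranged from 0 to 1 when each array was left out in turn. The 4 calls at 25 µM became 2 with no trend, 25 with the run term added and 13 with untreated and methanol arrays as control, and 1 to 2 without each methanol array in turn. Against the same-run methanol arrays, adding untreated arrays to the control gave 2 calls (Slc7a11 and Sprr1a). For compound 181 minus compound 178, 1 call became 6 with only the arrays compared and doses as replicates (both changed together), none of them Slc7a11, and 0 with doses sharing a mean or quantile normalization again, and 0 to 1 without each array in turn. The cause was not tested.

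The 320 ascending and 471 descending genes became 406 and 397 with quantile normalization again, 198 ascending with a mean signal of at least 5, 150 and 198 with untreated arrays added to the control, 766 and 841 with only the same-run methanol arrays, and 76 and 97 with the 25 µM array at least 0.5 from methanol. Leaving out 1 array at a time gave 516 to 1490 and 741 to 1856, where fewer arrays make the order easier to meet.

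Of 64 named genes 56 kept the sign of their mean difference in all settings that gave one. The reported values of the 8 others lay between -0.10 and 0.10. With the run term added Aspn was 0.0058, Prg4 0.070, Smad7 0.085 and Sp7 0.18. With untreated arrays in the control Aspn was 0.11, Prg4 0.036, Smad6 -0.048, Smad9 -0.095 and Sp7 0.064. Leaving out 1 array at a time gave -0.11 to 0.0062 for Aspn, -0.11 to 0.077 for Prg4, -0.082 to 0.13 for Smad6, -0.18 to 0.018 for Smad7, -0.12 to 0.080 for Smad9, -0.10 to 0.060 for Sp7, -0.088 to 0.19 for Id1 and -0.029 to 0.19 for Id2.

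No paired analysis was possible because the labels number no replicates, for comparisons with methanol. Pairing compounds 181 and 178 by dose, chosen after seeing the data, gave 0 calls. Each dose was 1 array assumed to vary like the replicated groups, and signals of dim genes such as Olfr1275 limit their differences.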

Other observations

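Outside the tested genes, 1 probe set that the annotation gives several symbols was ascending under compound 181. It read 6.09, 6.17 and 6.24 in methanol replicates 1, 2 and 3 and 6.76, 6.90 and 8.48 at 6.25, 12.5 and 25 µM, 2.31 above the methanol mean at the highest dose. Compound 178 gave it 6.16, 6.08 and 6.09. Another with several symbols was descending, from 6.94, 6.77 and 7.09 in methanol to 6.18, 6.12 and 5.58, with 6.99, 6.70 and 6.79 under compound 178. Both are left unnamed for that reason, and neither was tested.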
